A study of Mus musculus with 12 samples.

Results

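The genes described are 10 enzymes of glutathione and carbonyl metabolism in mouse embryonic stem (ES) cells: the glutathione peroxidases Gpx1, Gpx2, Gpx3 and Gpx4, the carbonyl reductases Cbr1 and Cbr3, the quinone reductase Nqo1, the heme oxygenase Hmox1, and the glutathione S-transferases Gstm1 and Gsta4. They were chosen by symbol. Gpx2 and Cbr3 had been picked for their differences between deleted and wild type cells in LIF, so values of that comparison are given for every member as a description, with no test. The array held 15 probes for these 10 genes among its 45281 probes. Of the 15, 12 passed the filter on dim probes (some group had a detection p under 0.05 on each of its 3 arrays), at least 1 for each gene, as did 15999 probes of the whole array, which name 9527 genes.

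Glutathione peroxidases reduce hydrogen peroxide and lipid peroxides with electrons from glutathione, and several of them carry selenocysteine in the active site. Gpx1 is the abundant cytosolic form, Gpx2 is known as the form of the gut epithelium, Gpx3 is secreted into plasma, and Gpx4 reduces phospholipid hydroperoxides in membranes and protects cells from ferroptosis. Carbonyl reductases and Nqo1 reduce ketones, aldehydes and quinones with NADPH, Hmox1 opens the heme ring, and glutathione S-transferases join glutathione to reactive compounds. Nqo1 and Hmox1 are textbook targets of the transcription factor NRF2 (gene Nfe2l2), which KEAP1 holds back and BACH1 opposes.

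The cells were E14, a male ES cell line of strain 129/Ola, grown without feeders on gelatin in serum. Deleted cells had the genotype HDAC1-/-; HDAC2-/wt, made by 4-hydroxytamoxifen (OHT, 1 uM for 16 h) acting on a CreER recombinase, and were taken on day 4. Wild type cells were taken on day 0, and the labels name OHT for them too, so genotype and day divide the samples in the same way and cannot be told apart. Each genotype was cultured with leukemia inhibitory factor (LIF), the cytokine that holds mouse ES cells in the undifferentiated state, or for 4 days without it. The 4 groups were therefore deleted with LIF, wild type with LIF, deleted without LIF and wild type without LIF, with 3 arrays each. The labels do not say whether replicate arrays had separate cultures or clones behind them, so p-values measure the spread between these arrays, which may be technical.

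The arrays detected 14872 to 18907 probes. Hdac1 had 0 probes by name, and Hdac2 read 11.05, 11.25 and 11.11 on deleted arrays, against 11.45, 11.24 and 11.44 on those of wild type cells, both with LIF (log2 intensity). Its difference did not pass the test with LIF (-0.24 ± 0.12, limma adjusted p = 0.241) or without it (-0.13 ± 0.12, adjusted p = 0.551). The column names of the 2 deposited tables disagreed on culture and replicate number for all 12 arrays, and agreed on genotype for 12 of 12. Cultures are named here by sample accession, under which Socs3, a direct LIF target, averaged 8.25 in deleted and 7.77 in wild type cells without LIF, against 11.03 in deleted and 10.83 in wild type cells with LIF. Under the naming used here, 6 of 6 measured LIF response genes passed as lower without LIF in wild type cells (8.64% of all probes did). In deleted cells 3 of 6 did (4.6% of all probes), and 0 passed as higher in either genotype. Under the other naming the 2 cultures would trade places in every result, and differences between cultures would change sign. These LIF response genes would then be higher without LIF. The ES cell marker Pou5f1 was detected on all 12 arrays, at means of 9.94 to 11.17.

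The regions before the transcription starts of Gpx2, Gpx3, Cbr1 and Cbr3 are printed because these genes give the contrasts within the families. Each is the 250 bases before the start, from RefSeq (GRCm38.p6), 5′ to 3′ along the gene, with CpG dinucleotides in capitals.
Gpx2, chr12:76795555-76795804, minus strand: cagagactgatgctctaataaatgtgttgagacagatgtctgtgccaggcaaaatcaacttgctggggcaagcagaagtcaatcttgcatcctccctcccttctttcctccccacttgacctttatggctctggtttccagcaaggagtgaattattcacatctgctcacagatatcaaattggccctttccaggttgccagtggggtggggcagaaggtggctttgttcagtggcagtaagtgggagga
Gpx3, chr11:54902604-54902853, plus strand: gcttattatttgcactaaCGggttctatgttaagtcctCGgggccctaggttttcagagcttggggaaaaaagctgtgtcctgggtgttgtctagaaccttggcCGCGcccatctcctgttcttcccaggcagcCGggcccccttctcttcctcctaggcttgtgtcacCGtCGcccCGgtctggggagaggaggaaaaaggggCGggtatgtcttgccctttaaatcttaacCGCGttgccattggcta
Cbr1, chr16:93607587-93607836, plus strand: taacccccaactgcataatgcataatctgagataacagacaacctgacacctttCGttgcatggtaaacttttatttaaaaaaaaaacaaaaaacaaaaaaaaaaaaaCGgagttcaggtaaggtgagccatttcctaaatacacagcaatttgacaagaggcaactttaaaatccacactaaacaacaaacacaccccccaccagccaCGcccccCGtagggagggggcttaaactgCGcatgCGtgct
Cbr3, chr16:93682969-93683218, plus strand: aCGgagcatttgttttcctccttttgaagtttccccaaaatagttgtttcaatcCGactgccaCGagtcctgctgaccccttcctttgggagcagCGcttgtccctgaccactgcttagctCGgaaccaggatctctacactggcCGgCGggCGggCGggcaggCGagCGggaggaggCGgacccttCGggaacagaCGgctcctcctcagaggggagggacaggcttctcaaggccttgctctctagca

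The Gpx2 region held no CpG. Over the full window of 300 bases, from 250 before to 50 after the start, Gpx2 had 0 CpGs, Gpx3 had 13, Cbr1 had 11 and Cbr3 had 19, against a median of 7 over 32851 mouse windows. Of all windows, 5.43% had as few as Gpx2. Gpx1 had 11 CpGs and Nqo1 had 5. Windows were found for 8 of the 10 genes, 12 windows in all. The letters TGACNNNGC, the core of the antioxidant response element that NRF2 binds, stood on either strand in 0 of the 12, against 12.4% of all windows. The GC box GGGCGG stood in 7 of the 12, against 35.7% of all windows. Those windows belonged to Gpx1, Gpx3, Gpx4, Cbr3 and Nqo1, and Gpx4 gave several, some of which overlap on the chromosome and share boxes. TATAAA stood in 2 of the 12 (Nqo1 and 1 window of Gstm1), against 13.6%. These matches describe the letters only.

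Gpx2 (gene 14776, chr12:76792335-76795554 in GRCm38.p6) was the peroxidase with the widest range over the groups. It read 9.75, 9.65 and 9.34 on the deleted arrays with LIF, against 8.52, 8.22 and 7.96 on wild type arrays in LIF. Without LIF it read 8.43, 8.32 and 8.02 on the deleted arrays, against 7.27, 6.56 and 6.89 on the wild type arrays. All deleted arrays lay above all wild type arrays of the same culture, and deleted cells without LIF lay in the range of wild type cells with LIF. The deleted minus wild type difference with LIF, which chose the gene, was 1.35 ± 0.19 on the log2 scale (SE, n = 3 arrays a group), or 2.54-fold. Without LIF, on arrays that did not enter that choice, Gpx2 rose 2.55-fold in deleted cells (1.35 ± 0.19, limma adjusted p = 0.00118, higher on 3 of 3 arrays). The call held under 20 of 20 alternatives, with adjusted p from 7.24e-06 to 0.0131. The wild type arrays without LIF were near the detection floor of 6.44 to 6.61, and Gpx2 was detected on 2 of those 3, where the scale compresses differences.

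In the main processing the 2 deletion differences of Gpx2 were alike in size, with a difference between cultures of 0.01 ± 0.27. That likeness depended on the processing. With and without LIF the differences were 1.23 and 1.09 under plain log2, and 1.46 and 1.68 at a normexp offset of 16. On the non-normalized intensities they were 1.54 and 2.02 under neqc, and 1.56 and 1.37 under median scaling. Gpx2 was also lower without LIF than with LIF, by -1.32 ± 0.19 in deleted and -1.33 ± 0.19 in wild type cells. These culture values use the arrays that chose the gene and were not tested. Of 15999 probes, 154 (0.963%) shared the pattern in which deleted lay above wild type in both cultures and the culture without LIF lay below that with LIF in both genotypes, with no overlap in any of the 4 pairs. The genes whose 12 array values were most like those of Gpx2 were Dad1 (Pearson r = 0.983), Ly6k (0.976), Cd79b (0.97), Rtn1 (0.968) and Gna11 (0.967), out of 9526 genes. The 12 arrays share the group structure, so these correlations are a description.

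**Figure D1:**
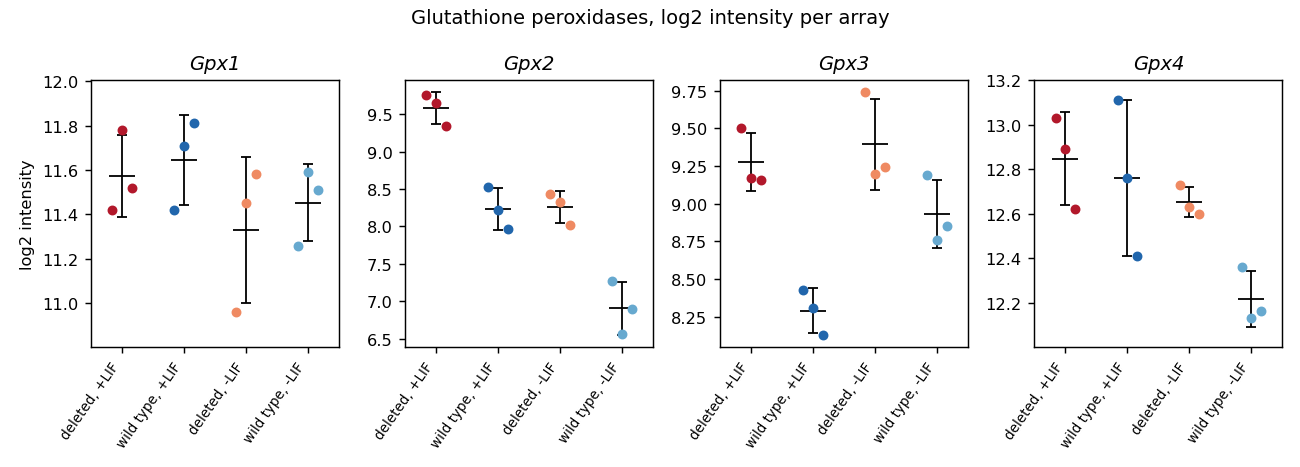
Log2 intensity (y axes, each with its own range) of the 4 glutathione peroxidases on every array, by group along the x axis. Points are arrays, horizontal bars are means and whiskers are SD (n = 3), and Gpx4 is shown by its brighter probe. Gpx2 lies higher in deleted than in wild type cells in both cultures, while the groups of Gpx1 overlap.

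Gpx1 (chr9:108339080-108340342), the abundant cytosolic peroxidase, differed little. It read 11.42, 11.78 and 11.52 on the deleted arrays with LIF, against 11.42, 11.71 and 11.81 on wild type arrays in LIF. In the culture without LIF it had 10.96, 11.45 and 11.58 on the deleted arrays, against 11.26, 11.59 and 11.51 on the wild type arrays. The groups overlapped in each culture. The difference was -0.07 ± 0.17 with LIF, and without LIF it was -0.12 ± 0.17 and did not pass (adjusted p = 0.712). Between cultures it did not pass either, in deleted (-0.24, adjusted p = 0.458) or in wild type cells (-0.19, adjusted p = 0.472).

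Gpx3 (chr11:54902854-54910387), the secreted plasma form, was higher in deleted cells with LIF by 0.98 ± 0.16, or 1.97-fold. It read 9.50, 9.17 and 9.16 on the deleted arrays with LIF, against 8.43, 8.31 and 8.13 on wild type arrays in LIF, with no overlap. After 4 days without LIF the values were 9.74, 9.20 and 9.24 on the deleted arrays, against 9.19, 8.76 and 8.85 on the wild type arrays, and the lowest deleted array stood just above the highest wild type array. That difference of 0.46 ± 0.16 did not pass (adjusted p = 0.104), and passed with replicate number as a block (adjusted p = 0.00657). Unlike Gpx2, Gpx3 was not lower without LIF: it rose 1.56-fold in wild type cells (0.64 ± 0.16, adjusted p = 0.0149), and in deleted cells the difference of 0.12 did not pass (adjusted p = 0.743). The wild type call was lost without wild type replicate 3 with LIF or without wild type replicate 1 without LIF (adjusted p up to 0.0583).

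Gpx4 (chr10:80047166-80056439), the phospholipid hydroperoxide peroxidase, had 2 kept probes, which followed each other over the 12 arrays (r = 0.938). The brighter one read 13.03, 12.89 and 12.62 on the deleted arrays with LIF, against 13.11, 12.76 and 12.41 on wild type arrays in LIF. Without the cytokine it had 12.73, 12.63 and 12.60 on the deleted arrays, against 12.36, 12.13 and 12.16 on the wild type arrays. The groups overlapped with LIF and did not overlap without it. With LIF the 2 probes differed by 0.09 and 0.11, values that turned to -0.09 and -0.05 without wild type replicate 3 and were 0.55 and 0.46 under median scaling. Without LIF the differences were 0.43 ± 0.16 (adjusted p = 0.113) and 0.48 ± 0.15 (adjusted p = 0.0636), and both passed with the replicate block (0.0166 and 0.00982). Without LIF Gpx4 fell in wild type cells on both probes (-0.54, adjusted p = 0.0299, and -0.53, adjusted p = 0.0229), and in deleted cells neither passed (-0.20 and -0.16). The wild type calls were lost in 8 of 21 alternatives for the brighter probe (adjusted p up to 0.365) and in 6 of 20 for the other (up to 0.168), and each in 4 of the fits that left out 1 array. Another Gpx4 probe was detected on 0 arrays and was not tested.

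The response of Gpx2 was set against those of its relatives in a comparison added after the data were seen. Without LIF, the deleted minus wild type difference of Gpx2 exceeded that of Gpx1 by 1.48, that of Gpx3 by 0.89 and that of Gpx4 by 0.92 on the log2 scale. Each had an exact permutation p of 0.1 (two-sided), the smallest that 3 against 3 arrays allow, so this design cannot reach 0.05. With LIF the corresponding values were 1.42, 0.37 and 1.26, as a description.

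Cbr3 (gene 109857, chr16:93683219-93690991) was lower in deleted cells in both cultures. Its brighter probe read 7.79, 7.67 and 7.90 on the deleted arrays with LIF, against 8.82, 9.01 and 9.44 on wild type arrays in LIF. Without LIF the values were 8.19, 8.35 and 8.29 on the deleted arrays, against 9.13, 9.01 and 9.09 on the wild type arrays. No deleted array reached any wild type array. The difference with LIF, which chose the gene, was -1.30 ± 0.14, or 2.47-fold lower. Without LIF Cbr3 fell 1.74-fold in deleted cells (-0.80 ± 0.14, adjusted p = 0.00461), and the call was lost under median scaling of the non-normalized intensities (-0.73, adjusted p = 0.106). As for Gpx2, that test is not an independent check. The dimmer probe, which followed the first (r = 0.907), differed by -0.67 ± 0.16 with LIF and by -0.35 ± 0.16 without it, where it did not pass (adjusted p = 0.203). The culture differences of the brighter probe, not tested, were 0.49 ± 0.14 in deleted and -0.01 ± 0.14 in wild type cells, and its deletion difference was smaller without LIF by 0.51 ± 0.20.

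Cbr1 (chr16:93607837-93610349), the broadly expressed carbonyl reductase, lies 72869 bases before Cbr3 on the same chromosome. It read 8.43, 8.26 and 8.45 on the deleted arrays with LIF, against 8.57, 8.56 and 8.67 on wild type arrays in LIF. In cells without LIF it read 8.77, 8.67 and 8.33 on the deleted arrays, against 8.79, 8.81 and 8.91 on the wild type arrays. Every deleted array lay below every wild type array of its culture, by a small margin. The differences were -0.22 ± 0.12 with LIF and -0.24 ± 0.12 without it, where it did not pass (adjusted p = 0.236). Without LIF the response of Cbr3 was lower than that of Cbr1 by -0.55 (exact permutation p = 0.1, again the smallest possible), and with LIF the value was -1.09.

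Genes next to these loci were read in the same fit, 3 measured genes on each side. Of the 6 around Gpx2, 0 passed with or without LIF in limma, where the smallest adjusted p was 0.0659, for Sptb without LIF. At an unadjusted p under 0.05, 2 of the 6 passed with LIF, where 23.3% of all probes did, and 3 without it, where 23.5% did. With the replicate block, Rab15, the next measured gene after Gpx2, passed in both cultures (0.42, adjusted p = 0.0139 with LIF, and 0.47, adjusted p = 0.00726 without it), and Sptb passed without LIF (-0.44, adjusted p = 0.0201). Of the neighbours of Cbr3, Morc3 rose without LIF (0.42 ± 0.12, adjusted p = 0.0401), and Setd4, Dop1b, Chaf1b and Clic6 did not pass in either culture. The genes most like Cbr3 over the 12 arrays were Cwf19l2 (r = 0.96), Fgf17 (0.959), Hirip3 (0.952), Prmt1 (0.941) and Eif3l (0.93).

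**Figure D2:**
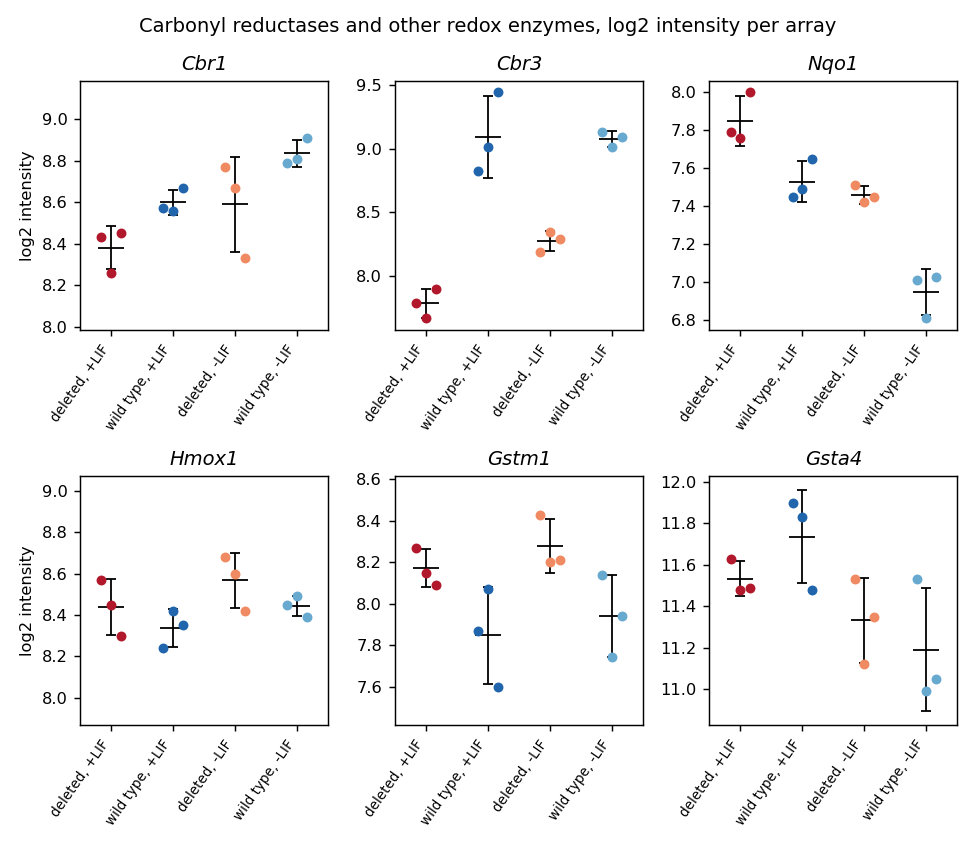
Log2 intensity (y axes, each with its own range) of Cbr1, Cbr3, Nqo1, Hmox1, Gstm1 and Gsta4 on every array, by group along the x axis. Points are arrays, horizontal bars are means and whiskers are SD (n = 3), and Cbr3 is shown by its brighter probe. Cbr3 is lower in deleted than in wild type cells in both cultures, and the Hmox1 groups overlap.

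Nqo1 (chr8:107388225-107403205) read 7.79, 7.76 and 8.00 on the deleted arrays with LIF, against 7.45, 7.49 and 7.65 on wild type arrays in LIF. Without LIF it had 7.51, 7.42 and 7.45 on the deleted arrays, against 7.01, 6.81 and 7.03 on the wild type arrays. Deleted lay above wild type without overlap in each culture. The difference was 0.32 ± 0.11 with LIF, and without LIF Nqo1 rose 1.42-fold (0.51 ± 0.11, adjusted p = 0.014). That call was lost without wild type replicate 2 (adjusted p = 0.0694) and under median scaling (0.0934). Without LIF Nqo1 fell in both genotypes, by -0.39 ± 0.11 in deleted cells (adjusted p = 0.041) and by -0.58 ± 0.11 in wild type cells (adjusted p = 0.00232). The deleted call was lost in 12 of 21 alternatives and the wild type call in 0 of 21. Over the 12 arrays Nqo1 followed Gpx2 (r = 0.917) more closely than Gpx3 did (0.328).

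Hmox1 (chr8:75093618-75100593), also an NRF2 target, read 8.57, 8.45 and 8.30 on the deleted arrays with LIF, against 8.24, 8.42 and 8.35 on wild type arrays in LIF. Without LIF it read 8.68, 8.60 and 8.42 on the deleted arrays, against 8.45, 8.49 and 8.39 on the wild type arrays. The groups overlapped in both cultures, and neither the deletion difference without LIF (0.12, adjusted p = 0.549) nor the culture differences passed.

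Of the glutathione S-transferases among the members, Gstm1 (chr3:108012250-108017973) read 8.27, 8.15 and 8.09 on the deleted arrays with LIF, against 7.87, 8.07 and 7.60 on wild type arrays in LIF. In the culture without LIF it read 8.43, 8.20 and 8.21 on the deleted arrays, against 8.14, 7.74 and 7.94 on the wild type arrays. The groups did not overlap in either culture, and the differences were 0.33 ± 0.14 with LIF and 0.34 ± 0.14 without it, where it did not pass (adjusted p = 0.147). Gsta4 (chr9:78191966-78209349), which conjugates the lipid peroxidation product 4-hydroxynonenal, read 11.63, 11.48 and 11.49 on the deleted arrays with LIF, against 11.90, 11.83 and 11.48 on wild type arrays in LIF. After 4 days without LIF it had 11.53, 11.12 and 11.35 on the deleted arrays, against 11.53, 10.99 and 11.05 on the wild type arrays, with overlap in each culture. Its deletion difference without LIF did not pass (0.14, adjusted p = 0.638). Without LIF Gsta4 fell in wild type cells (-0.55, adjusted p = 0.0295, a call lost in 8 of 21 alternatives), and the difference of -0.20 in deleted cells did not pass (adjusted p = 0.53).

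Without LIF, 3 of the 12 member probes passed between deleted and wild type cells, where 7.72% of all probes did. Gpx2 and Nqo1 were higher (4.28% of all probes were) and Cbr3, on its brighter probe, was lower (3.44% were). Gpx2 and Cbr3 had been chosen for their deletion difference with LIF, so the count is not that of an unselected family. Of the 9 probes of the other 8 genes, only that of Nqo1 passed. With the replicate block 6 of the 12 passed, Gpx3 and both Gpx4 probes joining as higher, beside 17.3% of all probes. Between cultures 9 probes of the other 8 genes were tested. In deleted cells 1 passed (Nqo1, lower), against 8.75% of all probes, 4.15% higher and 4.6% lower. In wild type cells 5 passed, Gpx3 higher and Nqo1, Gsta4 and both Gpx4 probes lower, against 18% of all probes, 9.37% higher and 8.64% lower. Values of the 12 probes did not overlap between the genotypes for 4 higher and 3 lower probes with LIF (28.9% of all probes did not overlap) and for 6 higher and 2 lower probes without it (26.9%). The count with LIF includes Gpx2 and both Cbr3 probes, whose genes were chosen for that difference, so it cannot be read against 28.9%. The rest of it was Gpx3, Nqo1 and Gstm1, higher, and Cbr1, lower. The count without LIF also includes Gpx2 and the brighter Cbr3 probe, and it holds Gpx4 by 2 probes. It is therefore not a count of separate, unselected genes to set against 26.9%.

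**Figure D3:**
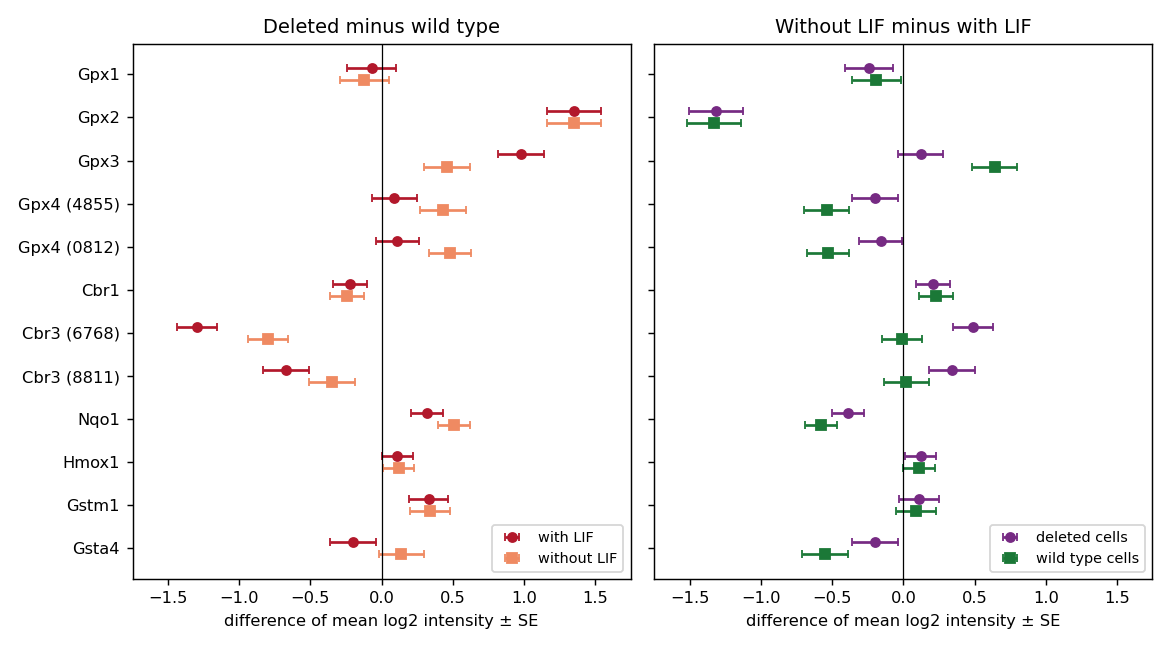
Differences of mean log2 intensity (x axes) for the 12 kept probes, with moderated SE as whiskers, between deleted and wild type cells in each culture (left) and between cultures without and with LIF in each genotype (right). Genes with 2 probes carry the last digits of the probe name. Gpx2 is at 1.35 in both cultures, and Cbr3 (brighter probe) is at -1.30 with LIF and -0.80 without it.

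The other genes of the redox system were read from lists of NRF2 targets and regulators, glutathione S-transferases, glutathione synthesis, thioredoxins and peroxiredoxins, superoxide dismutases, reductases, selenoproteins and heme handling, 106 measured genes without the members. Between deleted and wild type cells with LIF, 8 were higher and 0 lower, 7.55% of the list beside 7.19% of all probes (4.78% higher and 2.42% lower), with a median difference of 0.07 (0.01 over all probes). At an unadjusted p under 0.05, limma gave 22 higher and 5 lower of the 106, beside 13.4% and 9.85% of all probes at that threshold, and with the replicate block 18 and 4 passed after adjustment, where 17.1% of all probes did. Without LIF 12 were higher and 4 lower, 15.1% beside 7.72%, with a median of 0.04. The list has 1 probe a gene, its brightest, and such probes pass more often than all probes. In a fit of 1 probe a gene, 955 of 9527 genes passed with LIF and 999 without it. The shares of all probes, here and below, therefore set the bar too low for the lists.

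Blvrb, the flavin reductase that also reduces biliverdin, rose in deleted cells by 1.09 ± 0.16 with LIF (adjusted p = 0.00205) and by 0.74 ± 0.16 without it (adjusted p = 0.0147). Among 18 other glutathione S-transferases, 3 were higher with LIF (Gstk1, Mgst3 and Gstt3; 16.7% beside 7.19% of all probes), and without LIF 4 were higher and 1 lower (27.8% beside 7.72%). With the replicate block 7 were higher with LIF, where 17.1% of all probes passed. Without LIF 6 were then higher and 1 lower, where 17.3% of all probes passed. The lower one, Gstt2, differed by -0.75 ± 0.19 without LIF (adjusted p = 0.0311), and its dimmer probe by -0.22 (adjusted p = 0.347). Gstk1, of mitochondria and peroxisomes, rose by 0.84 with LIF and 0.68 without it, and Gstt3 rose by 0.74 with LIF and 0.60 without it. Idh1, which supplies cytosolic NADPH, rose by 0.63 in each culture (adjusted p = 0.0372 with LIF and 0.0348 without it). Without LIF Ephx1, an epoxide hydrolase, rose by 0.83 (adjusted p = 0.0441), Sod2, the mitochondrial superoxide dismutase, rose by 0.52 (adjusted p = 0.00757), and Gclm, the modifier subunit of glutathione synthesis, fell by 0.47 (adjusted p = 0.0261). With LIF none of them passed: Ephx1 differed by 0.35 (adjusted p = 0.394), Sod2 by -0.12 (0.532) and Gclm by -0.31 (0.124).

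Of the NRF2 regulators, Bach1 rose without LIF (0.44 ± 0.12, adjusted p = 0.0452) and did not pass with LIF (0.25, adjusted p = 0.246). Nfe2l2 itself did not pass with LIF (-0.20, adjusted p = 0.697) or without it (0.09, adjusted p = 0.88), nor did Keap1 (-0.38, adjusted p = 0.283, and -0.10, adjusted p = 0.825), which passed as lower with LIF under the replicate block (adjusted p = 0.0306). Of 17 measured NRF2 targets on the list other than the members, 2 passed with LIF, both higher (11.8% beside 7.19% of all probes), and without LIF 3 were higher and 1 lower (23.5% beside 7.72%). With the replicate block 3 were higher and 1 lower with LIF, where 17.1% of all probes passed, and 4 and 3 without LIF, where 17.3% did. Chac1, which degrades glutathione, and Trib3 were singled out after their values were seen, for their low values in both cultures. Chac1 differed by -1.11 ± 0.51 with LIF (adjusted p = 0.206) and by -0.98 ± 0.51 without it (0.268), and Trib3 by -0.79 ± 0.23 (0.0525) and -0.71 ± 0.23 (0.074), so neither passed. With the replicate block both passed in each culture, Chac1 with adjusted p of 0.0128 and 0.0244 and Trib3 with 0.00955 and 0.0167, with and without LIF. Both genes were picked from these same differences, so these p-values are a description only.

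Without LIF compared with LIF, 4 of the 106 genes were higher and 4 lower in deleted cells (7.55% beside 8.75%), and 15 were higher and 13 lower in wild type cells (26.4% beside 18%). In the fit of 1 probe a gene, 1027 of 9527 genes passed in deleted and 2010 in wild type cells. Sod2 fell by 0.48 in deleted cells (adjusted p = 0.00782) and by 1.12 in wild type cells (adjusted p = 6.11e-06). Gpx8, a peroxidase of the endoplasmic reticulum and not among the members, rose by 0.99 in deleted (adjusted p = 0.000419) and by 1.22 in wild type cells (adjusted p = 3.81e-05).

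**Figure D4:**
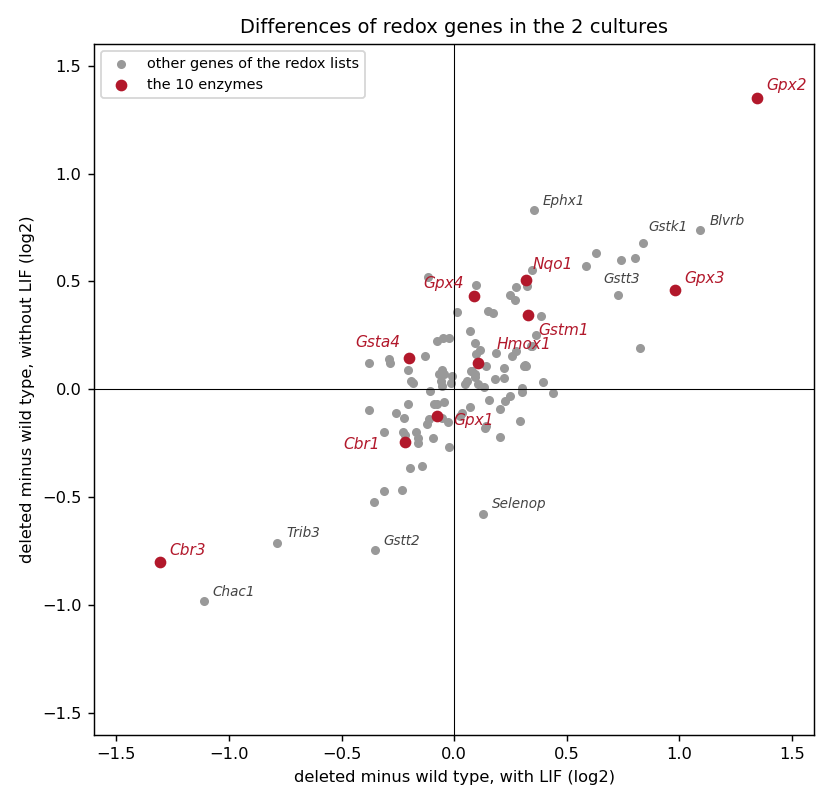
Deleted minus wild type log2 difference with LIF (x axis) and without LIF (y axis) for the 10 enzymes (red) and 106 other redox genes (grey), 1 probe a gene. The 2 axes share no array. Gpx2 is at the upper right at 1.35 on both axes, and Cbr3 is at the lower left.

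Markers of other cell types were in part higher in deleted cells, and their part in the differences above was not tested. With LIF, 4 of 6 measured endoderm, 3 of 7 trophoblast and 4 of 5 fibroblast markers passed as higher. Without LIF 2 of 6, 3 of 7 and 0 of 5 did. Of all probes, 4.78% passed as higher with LIF and 4.28% without it. With the replicate block the marker counts were 4, 5 and 4 with LIF, and 5, 3 and 2 without it. That fit passed 17.1% of all probes with LIF and 17.3% without it, higher and lower together. The mean log2 level of 6 measured of 13 endoderm markers was 8.03 to 8.24 in deleted and 7.43 to 7.64 in wild type cells with LIF, and 8.59 to 8.77 in deleted and 8.13 to 8.28 in wild type cells without it. Sox17, Gata4, Foxa2, Cubn, Afp, Ttr and Sox7 were not kept. The 7 measured of 10 trophoblast markers gave 8.80 to 9.18 in deleted and 8.42 to 8.58 in wild type cells with LIF, and 9.15 to 9.65 in deleted and 8.85 to 8.97 in wild type cells without it, with Cdx2, Elf5 and Hand1 not kept. The 5 measured of 8 fibroblast markers gave 7.81 to 7.98 in deleted and 7.20 to 7.44 in wild type cells with LIF, and 7.43 to 7.72 in deleted and 7.17 to 7.44 in wild type cells without it, where the ranges overlap, with Col1a2, Col3a1 and S100a4 not kept. ES cell markers (10 of 10 measured) gave 10.91 to 11.18 in deleted and 11.18 to 11.47 in wild type cells with LIF, and 9.75 to 10.16 in deleted and 9.98 to 10.26 in wild type cells without it. Of these 10, Pou5f1 passed as lower in deleted cells with LIF (-0.50, limma adjusted p = 0.0277) and without it (-0.87, adjusted p = 0.00124). Dppa5a passed as higher without LIF (0.42, adjusted p = 0.0245). Of 6 LIF response genes, 1 passed as higher in deleted cells with LIF and 3 without it, and 0 as lower. The part of these genes in the differences above was not tested either. In such bulk samples fewer cells of a type and less RNA per cell cannot be told apart.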

How the data were processed

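Biotin-labelled cRNA of 12 samples was read on 1-colour Illumina arrays. GenomeStudio is named in the submitters' processing notes, and its settings are not given in the sources used here. The authors deposited a table of processed intensity values, on a linear scale (86.5 to 35095, medians 125.8 to 125.9), and a table of non-normalized intensity values with a detection p-value for each probe, per the file headers.

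The processed intensities were corrected with normexp (offset 50), taken to log2 and quantile-normalized. Detection p-values followed arrays by identical rank order (rho 1, next highest 0.836), which also showed the naming conflict. All 12 arrays entered 1 limma fit of the 4 groups (limma 3.58.1 in R 4.3.3, 8 residual degrees of freedom), with two-sided tests and Benjamini-Hochberg adjustment at 0.05 over 15999 probes. Errors are moderated SE, with a median of 0.14 for deletion differences, so the number of arrays limits the precision. A fold is on the scale of the offset values and understates the change of dim genes. In simulated data for the comparison without LIF (15999 probes), 2 of 50 changes of 1.3-fold, 26 of 50 of 1.5-fold, 44 of 50 of 2-fold and 50 of 50 of 4-fold were recovered, and 6 of 128 calls (4.69%) were unchanged probes. The simulation drew independent noise for each array and changed only 200 probes. In the data 1235 probes passed and same-numbered arrays deviated together. The simulated rates therefore do not give those of the real comparison.

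The members and lists were chosen with earlier results of these data known. Other genes were named by rule: up to 6 genes of largest difference per list and contrast among those that passed, the nearest genes in pattern and position, and checks of the samples. Not all of them are printed. A gene had its brightest kept probe in list counts. A single symbol was listed for 34885 probes, more than 1 for 18 and none for 10378, and the IDs of 34807 were found in the reference. Probe positions were not analysed here, and related sequences such as the Gstm genes can cross-hybridise.

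Same-numbered arrays deviated together in the deletion comparisons (correlations 0.48, 0.29 and 0.37 with LIF, and 0.67, 0.49 and 0.25 without it) and between cultures in deleted cells (0.55, 0.3 and 0.37), all over 0.1, so blocked values are given where they change a call. In wild type cells the culture values were 0.5, -0.05 and 0.34. Pairing across cultures rests on the naming, and the 6 pairs within cultures stay pairs under both.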

Additional observations from a re-analysis of the deposited data

How the results depend on the processing

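The limits are the 3 arrays a group, the confounding of genotype with day, the naming conflict for culture, and signal near background for wild type Gpx2 without LIF. The Gpx2 difference without LIF stayed between 1.18 and 1.53 when 1 array was left out, and that of Cbr3 between -0.84 and -0.75 on its brighter and between -0.53 and -0.18 on its dimmer probe. Normalization moved them more: Gpx2 without LIF was 1.09 under plain log2 and 2.02 under neqc, and the dimmer Cbr3 probe with LIF was -0.49 under plain log2 and -1.22 under neqc, against -0.67. The cause of the following changes was not tested.

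Probes passing with LIF numbered 1151 (594 with no probe filter, 2743 with the replicate block, 311 to 1523 with 1 array left out), and without LIF 1235 (384 under median scaling, 706 with no filter, 2771 with the block, 556 with only the 2 groups, 446 to 1476). Between cultures 1400 passed in deleted cells (882 under median scaling, 2534 with the block, 740 to 1549) and 2882 in wild type cells (1206, 4445, 1911 to 3201). Under median scaling the share of higher calls was 96.9% against 66.4% with LIF, 87.5% against 55.5% without LIF and 17.5% against 47.4% between cultures in deleted cells, and the median of all probes shifted to 0.14 with LIF and -0.12 between cultures in deleted cells. Member probes passing without LIF numbered 3 (1 under median scaling, 6 with the block, 2 to 4 with 1 array left out). Between cultures 1 member probe passed in deleted cells (0 under neqc, median scaling, no filter and the 2 groups alone, 0 to 1) and 5 in wild type cells (3 under neqc, 2 under median scaling, 3 with no filter, 2 with the 2 groups alone, 2 to 5).

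Redox list genes passing with LIF numbered 8 (5 at offset 16, 4 under neqc, 17 under median scaling, 5 with no filter, 22 with the block, 3 to 15), and without LIF 16 (9 at offset 16, 6 under neqc, 9 under median scaling, 6 with no filter, 28 with the block, 4 with the 2 groups alone, 3 to 20). Between cultures 8 passed in deleted cells (24 with the block, 5 to 11) and 28 in wild type cells (16 under median scaling, 21 to 29). Cbr3 without LIF was -0.73 under median scaling (adjusted p = 0.106).

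Differences that turned sign were small. Under median scaling these were, with LIF, Gpx1 (0.33, against -0.07) and Gsta4 (0.18, against -0.20), between cultures in deleted cells Gstm1 (-0.03), Gpx3 (-0.07) and Hmox1 (-0.04), and between cultures in wild type cells the dimmer Cbr3 probe (-0.04). Gpx4 with LIF kept its sign there but went to 0.55 and 0.46, against 0.09 and 0.11. With 1 array left out, with LIF Gpx1 ranged from -0.19 to 0.01 and Gpx4 from -0.09 to 0.26 and from -0.05 to 0.23, and without LIF Gpx1 from -0.25 to 0.06. Between cultures in wild type cells Gstm1 ranged from -0.03 to 0.21, Cbr3 from -0.15 to 0.16 on its brighter and from -0.09 to 0.14 on its dimmer probe, and in deleted cells Gpx3 from -0.05 to 0.23. The responses of Gpx2 against its relatives and of Cbr3 against Cbr1 were a comparison added after the data were seen, and they kept their sign under the 4 other normalizations and with each array left out.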
